A study of Sus scrofa with 10 samples.

Results

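The trophectoderm transcription factors are the regulators that set up the outer, epithelial cells of the early embryo, from which the placenta forms. They were followed here in pig morulae as 10 genes: CDX2, GATA2, GATA3, TFAP2A, TFAP2C, ELF3, EOMES, HAND1, MSX2 and ID2. The members were taken by gene symbol, each symbol had 1 row, and together they make up 10 of the 24358 genes and 17 of the 47421 isoforms listed. All 10 libraries came from oocytes that had been matured, given a small interfering RNA (siRNA) by injection, activated parthenogenetically, without sperm, and grown to the morula. The 5 DDB1_KD libraries received an siRNA against DDB1, an adaptor that brings substrates to CUL4 ubiquitin ligases, and the 5 NC libraries a non-specific siRNA. Embryos of both groups are therefore uniparental, and no uninjected or fertilised embryos were compared. The labels name no batch and no number of embryos per library, and nothing says that libraries of 1 group came from separate cultures, so the p-values speak only of the spread from library to library, which may be partly technical.

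As background, most of what is known of these factors comes from the mouse. There, outer cells of the morula keep the coactivator YAP1 in the nucleus, where it works with the DNA-binding factor TEAD4 to switch on Cdx2 and Gata3. CDX2, EOMES, the AP-2 factor TFAP2C and the zinc-finger factors GATA2 and GATA3 then build the trophoblast programme, HAND1 acts later in giant cells, and ID2 and MSX2 respond to bone morphogenetic proteins (BMP). In hoofed mammals the timing and use of the same factors differ from the mouse.

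Library depth was 32466912 to 50911295 estimated counts, and 13522 to 14755 genes had a count in a library. DDB1 was lower in every DDB1_KD library, at 0.920 to 1.55 FPKM (fragments normalised for transcript length and library size), than in any NC library, at 2.53 to 4.44 FPKM. Its log2 fold change was -1.39 (SE 0.28), with an adjusted p of 0.977 by edgeR's quasi-likelihood test and of 0.0069 by DESeq2. Of 8476 genes tested, edgeR passed 0 (0%) at an adjusted p under 0.05, limma 0 (0%) and DESeq2 2 (0.0236%), namely YAP1 and DDB1. In edgeR 245 genes (2.89%) had an unadjusted p under 0.05. Of the embryo's own markers, TFAP2C, GATA2, GATA3, DAB2, KRT8, KRT18, POU5F1 and NANOG averaged above 1 FPKM in both groups. TFAP2A averaged 0.778 FPKM in DDB1_KD libraries and 0.889 FPKM in NC libraries. SOX2 averaged 1.20 FPKM in DDB1_KD libraries and 0.871 FPKM in NC libraries, and CDX2 was close to 0 in both groups. The summed level of 9 cumulus and granulosa cell markers was 0 to 0.267 FPKM in DDB1_KD libraries and 0.00765 to 0.168 FPKM in NC libraries, with 4 of the 9 at 0 in every library. The 6 fibroblast markers summed to 0.0863 to 1.09 FPKM in DDB1_KD libraries and 0.226 to 1.34 FPKM in NC libraries. The 4 blood cell markers found summed to 49.8 to 85.6 FPKM in DDB1_KD libraries and 68.0 to 96.0 FPKM in NC libraries, most of it CD74, the invariant chain of antigen presentation, at 65.4 ± 14.2 FPKM in DDB1_KD libraries and 78.1 ± 9.19 FPKM in NC libraries (SD, n = 5 each). The part of these markers in the values of the factors was not tested.

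No member passed a test. The 4 members with a mean of at least 1 FPKM over the 10 libraries, TFAP2C, MSX2, GATA3 and GATA2, entered the comparison across genes, and edgeR, limma and DESeq2 each passed 0 of these 4, against the shares over all genes given above. The other 6 members lay under that filter and were fitted with no filter, over 18578 genes with a count, where edgeR passed 0 genes (0%) and none of the 6. No member had an unadjusted p under 0.05 in edgeR. The 2 groups of 5 libraries overlapped for all 10 members. They did not overlap for 35 of the 8476 genes tested (0.413%). The fitted value was lower in DDB1_KD for 9 of the 10 members, EOMES being the exception, against 50.5% of all genes with a count and 50% of the genes tested. That number moved between 8 and 10 when 1 library was left out, so the signs of single members are given below with their spread. In whole-embryo RNA, fewer cells of a type and less RNA per cell cannot be told apart.

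**Figure D1:**
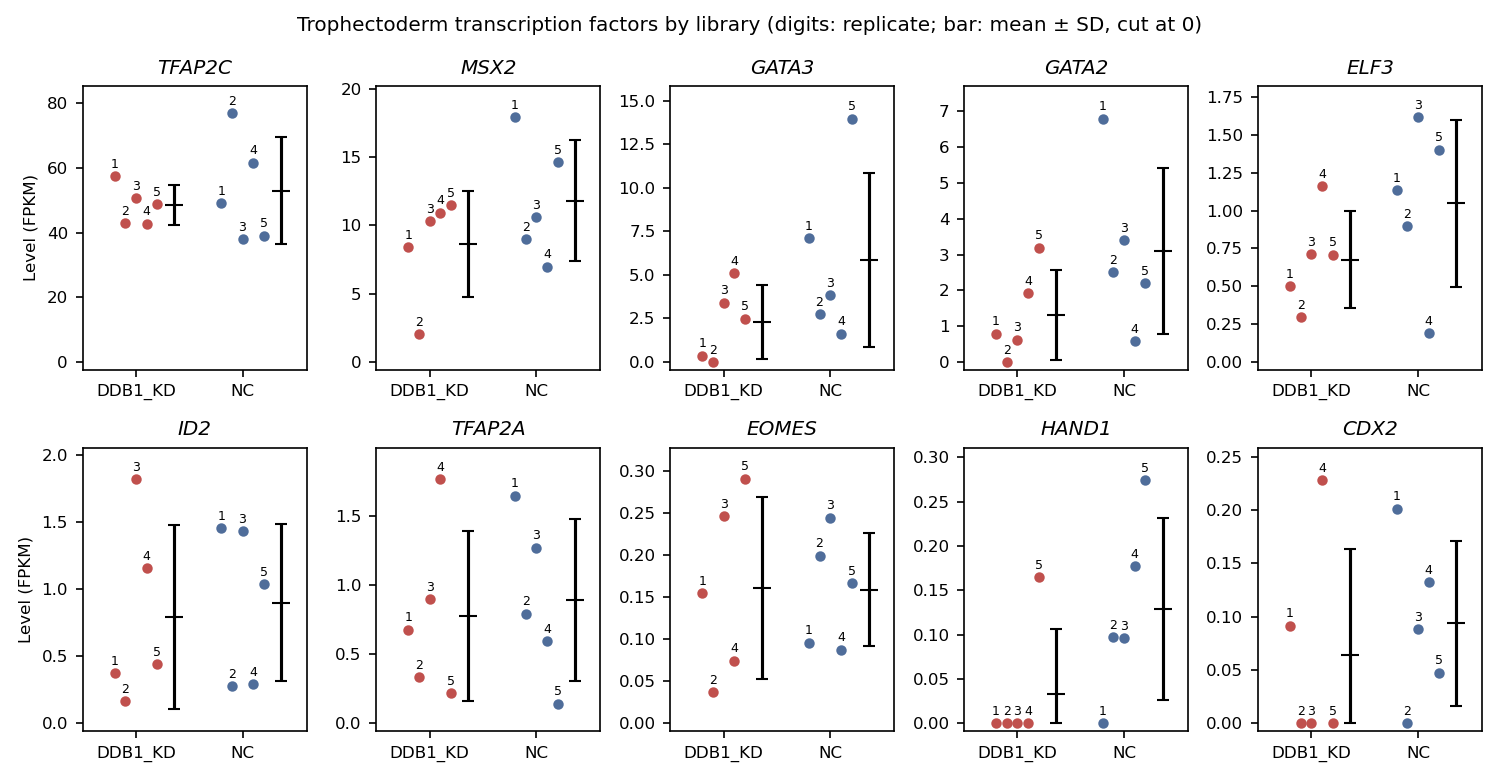
Level of each factor in FPKM (vertical axis, linear, scaled per panel) in the 5 DDB1_KD and the 5 NC libraries; each point is a library, labelled with its replicate number, and the black mark gives the group mean ± SD, cut at 0. TFAP2C lies between 37.9 and 77.0 FPKM in all libraries, GATA2 and GATA3 reach 0 in DDB1_KD replicate 2, and CDX2, EOMES and HAND1 stay under 0.30 FPKM.

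TFAP2C, an AP-2 factor that in the mouse is needed for trophoblast and for the epithelial seal of the early embryo, was by far the most abundant member. ENSSSCG00000007499 spans chromosome 17 from 57164371 to 57175315 (plus strand, susScr11 build, which all coordinates here use) and has a single model of 7 exons. TFAP2C stood at 57.4, 43.0, 50.7, 42.7 and 48.7 FPKM in DDB1_KD replicates 1 to 5, and 49.1, 77.0, 37.9, 61.6 and 39.0 FPKM in NC replicates 1 to 5. All DDB1_KD values fall inside the NC range. The means were 48.5 ± 6.09 FPKM in DDB1_KD libraries and 52.9 ± 16.5 FPKM in NC libraries (SD, n = 5 each), with a log2 fold change of -0.12 (SE 0.24) and an adjusted p of 0.977 by edgeR. Among DDB1_KD libraries the coefficient of variation was 12.6%, lower than in all but 2.82% of the genes tested, and among NC libraries it was 31.2%, at the 56.9th percentile. The sign was not stable, since the log2 fold change was 0.090 without NC replicate 2.

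MSX2, a homeobox repressor that responds to BMP signals, was second. Its gene, ENSSSCG00000034500, spans chromosome 16 from 49764594 to 49772121 (minus strand) with a single model of 2 exons. Its level was 8.39, 2.01, 10.3, 10.9 and 11.5 FPKM in DDB1_KD replicates 1 to 5, and 17.9, 8.98, 10.6, 6.97 and 14.6 FPKM in NC replicates 1 to 5. The DDB1_KD libraries other than replicate 2 lay inside the NC range, and replicate 2, with 324 counts, lay below every other library. The means were 8.63 ± 3.88 FPKM in DDB1_KD libraries and 11.8 ± 4.42 FPKM in NC libraries (SD, n = 5 each), a log2 fold change of -0.41 (SE 0.41, adjusted p = 0.977 by edgeR). Without DDB1_KD replicate 2 it was -0.16.

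GATA3, a zinc-finger factor that in mouse trophectoderm is switched on by TEAD4 alongside CDX2, came next in 7 of the 10 libraries. ENSSSCG00000011125 spans chromosome 10 from 63367663 to 63390560 (minus strand). Its level was 0.360, 0, 3.40, 5.11 and 2.48 FPKM in DDB1_KD replicates 1 to 5, and 7.12, 2.74, 3.83, 1.62 and 13.97 FPKM in NC replicates 1 to 5. DDB1_KD replicates 1 and 2 lay below all NC libraries, the other 3 DDB1_KD libraries lay inside the NC range, and NC replicate 5 stood at the top. The means were 2.27 ± 2.13 FPKM in DDB1_KD libraries and 5.86 ± 4.98 FPKM in NC libraries (SD, n = 5 each). The log2 fold change was -1.34 (SE 1.02, adjusted p = 0.977 by edgeR). Leaving out DDB1_KD replicate 2 gave -1.01, leaving out DDB1_KD replicate 4 gave -1.77, and leaving out NC replicate 5 gave -0.77.

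GATA2, the related zinc-finger factor of trophoblast and of blood progenitors, varied nearly as widely. ENSSSCG00000011618 spans chromosome 13 from 71984067 to 71999729 (plus strand). Its level was 0.786, 0, 0.619, 1.92 and 3.20 FPKM in DDB1_KD replicates 1 to 5, and 6.80, 2.501, 3.41, 0.583 and 2.204 FPKM in NC replicates 1 to 5. Of the DDB1_KD libraries only replicate 2 was below every NC library, and NC replicate 4 was as low as DDB1_KD replicates 1 and 3. The means were 1.30 ± 1.26 FPKM in DDB1_KD libraries and 3.10 ± 2.31 FPKM in NC libraries (SD, n = 5 each), a log2 fold change of -1.20 (SE 0.99, adjusted p = 0.977 by edgeR). With DDB1_KD replicate 2 omitted it was -0.88, with DDB1_KD replicate 5 omitted -1.94, and with NC replicate 1 omitted -0.69.

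Both GATA factors were more variable within each group than most genes. Among DDB1_KD libraries the coefficient of variation was 97.0% for GATA2 and 93.9% for GATA3, at the 95.6th and 94.96th percentiles of the genes tested. Among NC libraries it was 74.4% for GATA2 and 85.0% for GATA3, at the 93.7th and 95.9th percentiles. These percentiles are over all genes tested, whatever their level, and the cause of the spread was not tested. The factors did not keep a fixed ratio to each other: GATA3 stood at 0.458, 5.49, 2.66 and 0.776 times the GATA2 level in DDB1_KD replicates 1, 3, 4 and 5, and at 1.05 to 6.34 times in NC libraries. GATA3 was the higher of the pair in 2 of 5 DDB1_KD libraries and in 5 of 5 NC libraries. In DDB1_KD replicate 2 both were at 0, so neither was the higher.

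**Figure D2:**
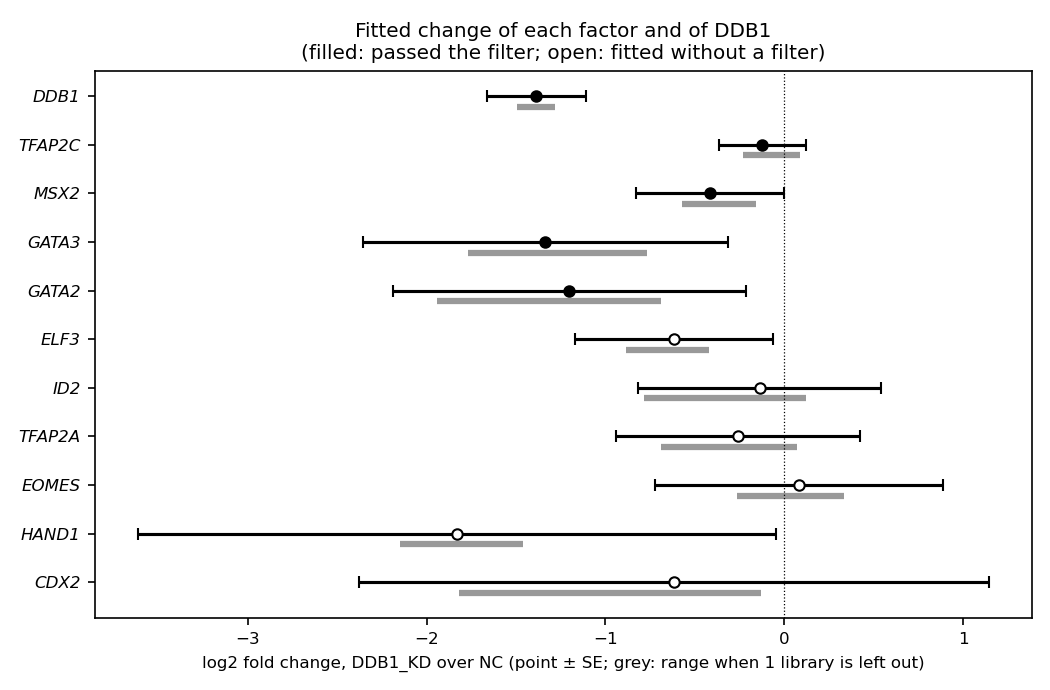
Fitted log2 fold change, DDB1_KD over NC, of DDB1 and of each factor (horizontal axis; dot with SE, filled where the gene passed the filter and open where it was fitted without one), with a grey bar for the range when 1 library is left out; a setting that leaves a group with no count for the gene is not drawn. DDB1 stays between -1.49 and -1.28, GATA2 and GATA3 stay below 0 with wide errors, and the bars of TFAP2C, TFAP2A, ID2 and EOMES cross 0.

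DDB1_KD replicate 2 had a count of 0 for both GATA2 and GATA3, which at 3 counts allows up to 0.0112 FPKM for GATA2 and 0.0167 FPKM for GATA3. The total of this library was 42097669 estimated counts, within the range of the others. The other 9 libraries had 167 to 1510 counts of GATA2 and 67 to 2842 counts of GATA3. Of the 8476 genes tested, 34 (0.401%) had a 0 in this library and a count in each of the other 9, and for the other libraries the same number ran from 6 in NC replicate 1 to 35 in DDB1_KD replicate 5. With at least 30 counts required in each of the other 9 libraries, 16 genes were left for DDB1_KD replicate 2 and 0 to 9 for the other libraries. Besides the GATA pair the 16 include TCF4, a partner of ID proteins, and ERBB4, a receptor tyrosine kinase, both named after their values were seen. This library was the lowest of the 10 for 5 members, GATA2, GATA3, MSX2, ID2 and EOMES. It was the lowest for 15.3% of the genes tested, and the other libraries for 4.35% to 17.8%. Its TFAP2C level of 43.0 FPKM was inside the range of its group.

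Maternal oocyte transcripts, RNAs stored in the egg and cleared as the embryo takes over, differed between the same libraries. The mean of 17 such transcripts was 0.99, 4.86, 4.45, 2.65 and 4.27 log2 CPM (counts scaled to library size) in DDB1_KD replicates 1 to 5, and 2.92, 3.14, 4.13, 2.04 and 1.69 log2 CPM in NC replicates 1 to 5. DDB1_KD replicate 2 was the highest. DDB1_KD replicate 1, where GATA3 was at 0.360 FPKM, was the lowest, and DDB1_KD replicates 3 and 5, with the next highest maternal levels, had 3.40 and 2.48 FPKM of GATA3. All 17 transcripts had a higher fitted value in DDB1_KD, and their median was 0.90 on the log2 scale, against 0.00036 over all genes tested, and none passed edgeR or DESeq2. Without DDB1_KD replicate 2 the median was 0.56 and 3 of the 17 were lower. The part of this difference in the values of the factors was not tested.

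ELF3, an ETS factor of epithelial cells, was under the filter. ENSSSCG00000010922 spans chromosome 10 from 24237068 to 24243058 (plus strand). Its level was 0.500, 0.296, 0.711, 1.16 and 0.708 FPKM in DDB1_KD replicates 1 to 5, and 1.14, 0.897, 1.62, 0.188 and 1.40 FPKM in NC replicates 1 to 5. NC replicate 4 was the lowest of all 10 libraries, and the other 4 NC libraries were above 4 of the 5 DDB1_KD libraries. The means were 0.675 ± 0.321 FPKM in DDB1_KD libraries and 1.05 ± 0.553 FPKM in NC libraries (SD, n = 5 each), with a log2 fold change of -0.62 (SE 0.55, adjusted p = 0.897 by edgeR with no filter).

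TFAP2A, the AP-2 relative of TFAP2C (ENSSSCG00000001036) spans chromosome 7 from 7223100 to 7244883 (minus strand). Its level was 0.677, 0.336, 0.895, 1.76 and 0.218 FPKM in DDB1_KD replicates 1 to 5, and 1.65, 0.793, 1.27, 0.593 and 0.143 FPKM in NC replicates 1 to 5. Both groups ran over nearly the same range, and their libraries were interleaved. The log2 fold change was -0.26 (SE 0.68, adjusted p = 0.991 by edgeR with no filter). In DDB1_KD libraries TFAP2C was 24.2 to 223 times as high as TFAP2A, and in NC libraries 29.8 to 274 times.

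ID2, which binds other helix-loop-helix factors and keeps them off DNA and marks outer cells early in the mouse, (ENSSSCG00000008645) spans chromosome 3 from 127499410 to 127503297 (minus strand). Its level was 0.373, 0.167, 1.82, 1.16 and 0.443 FPKM in DDB1_KD replicates 1 to 5, and 1.46, 0.280, 1.44, 0.294 and 1.04 FPKM in NC replicates 1 to 5. Within each group the libraries fell into some below 0.45 FPKM and some above 1 FPKM. The log2 fold change was -0.14 (SE 0.68, adjusted p = 0.993 by edgeR with no filter), and it was 0.12 without NC replicate 1 or without DDB1_KD replicate 2.

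EOMES, a T-box factor required in mouse trophoblast stem cells, had a count in all 10 libraries. ENSSSCG00000040057 spans chromosome 13 from 14209029 to 14216499 (minus strand). Its level was 0.155, 0.0369, 0.246, 0.0746 and 0.291 FPKM in DDB1_KD replicates 1 to 5, and 0.0957, 0.199, 0.244, 0.0877 and 0.167 FPKM in NC replicates 1 to 5. The group means differed by less than the spread within either group, at 0.161 ± 0.108 FPKM in DDB1_KD libraries and 0.159 ± 0.0671 FPKM in NC libraries (SD, n = 5 each). The log2 fold change of 0.084 (SE 0.80, adjusted p = 0.994 by edgeR with no filter) changed sign with several settings.

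HAND1, the helix-loop-helix factor of mouse trophoblast giant cells, was near the limit of detection. ENSSSCG00000031080 spans chromosome 16 from 68677963 to 68683342 (plus strand). It had 0, 0, 0, 0 and 32 counts in DDB1_KD replicates 1 to 5, and 0, 18, 14, 37 and 53 counts in NC replicates 1 to 5. A count was thus listed in 1 of 5 DDB1_KD libraries and in 4 of 5 NC libraries, and its highest level was 0.274 FPKM, in NC replicate 5. The log2 fold change was -1.83 (SE 1.78, adjusted p = 0.913 by edgeR with no filter). With DDB1_KD replicate 5 left out the DDB1_KD group holds no count, and no fold change is given.

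CDX2, the caudal-type homeobox factor that keeps mouse trophectoderm from reverting to pluripotency, was, with HAND1, the least abundant member. ENSSSCG00000009317 spans chromosome 11 from 5339722 to 5346081 (minus strand) with a single model of 3 exons. It had 9, 0, 0, 16 and 0 counts in DDB1_KD replicates 1 to 5, and 15, 0, 6, 14 and 5 counts in NC replicates 1 to 5. No library passed 0.228 FPKM, and the means were 0.0639 ± 0.09998 FPKM in DDB1_KD libraries and 0.0938 ± 0.0775 FPKM in NC libraries (SD, n = 5 each). A difference between the groups was not detectable at this depth, with a log2 fold change of -0.61 (SE 1.76, adjusted p = 0.991 by edgeR with no filter). Leaving out DDB1_KD replicate 4 gave -1.82, and leaving out NC replicate 1 gave -0.13.

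The order of levels per transcript length was the same at the top in every library. TFAP2C was first and MSX2 second in 10 of 10 libraries, and the lowest TFAP2C level, 37.9 FPKM, was above the highest MSX2 level, 17.9 FPKM. MSX2 was above GATA3 in every library, although the ranges overlap. Below them the order was looser. The next place went to GATA3 in 7 libraries, to GATA2 in DDB1_KD replicates 1 and 5, and to TFAP2A in DDB1_KD replicate 2. Mean levels of ELF3, ID2 and TFAP2A over all libraries were 0.862, 0.846 and 0.833 FPKM, differing by less than the spread of any of them. EOMES, HAND1 and CDX2 formed the bottom, at 0.160, 0.0810 and 0.0789 FPKM, also with overlapping ranges.

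Counted together, 2, 2, 4, 7 and 4 members reached 1 FPKM in DDB1_KD replicates 1 to 5, and 7, 4, 7, 3 and 6 members in NC replicates 1 to 5. The counts overlap between the groups, with DDB1_KD replicate 4 as high as the highest NC libraries. Members with any count numbered 6 to 9 in DDB1_KD libraries and 9 to 10 in NC libraries. The summed level of the 9 members other than TFAP2C was 11.3, 2.85, 18.0, 22.4 and 19.0 FPKM in DDB1_KD replicates 1 to 5, and 36.4, 16.5, 22.6, 10.6 and 33.9 FPKM in NC replicates 1 to 5. Only DDB1_KD replicate 2 was below every NC library. The sums averaged 14.7 ± 7.74 FPKM in DDB1_KD libraries and 24.0 ± 11.03 FPKM in NC libraries (SD, n = 5 each). TFAP2C made up 65.7% to 93.8% of the summed level of all 10 members in DDB1_KD libraries and 53.6% to 85.3% in NC libraries.

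**Figure D3:**
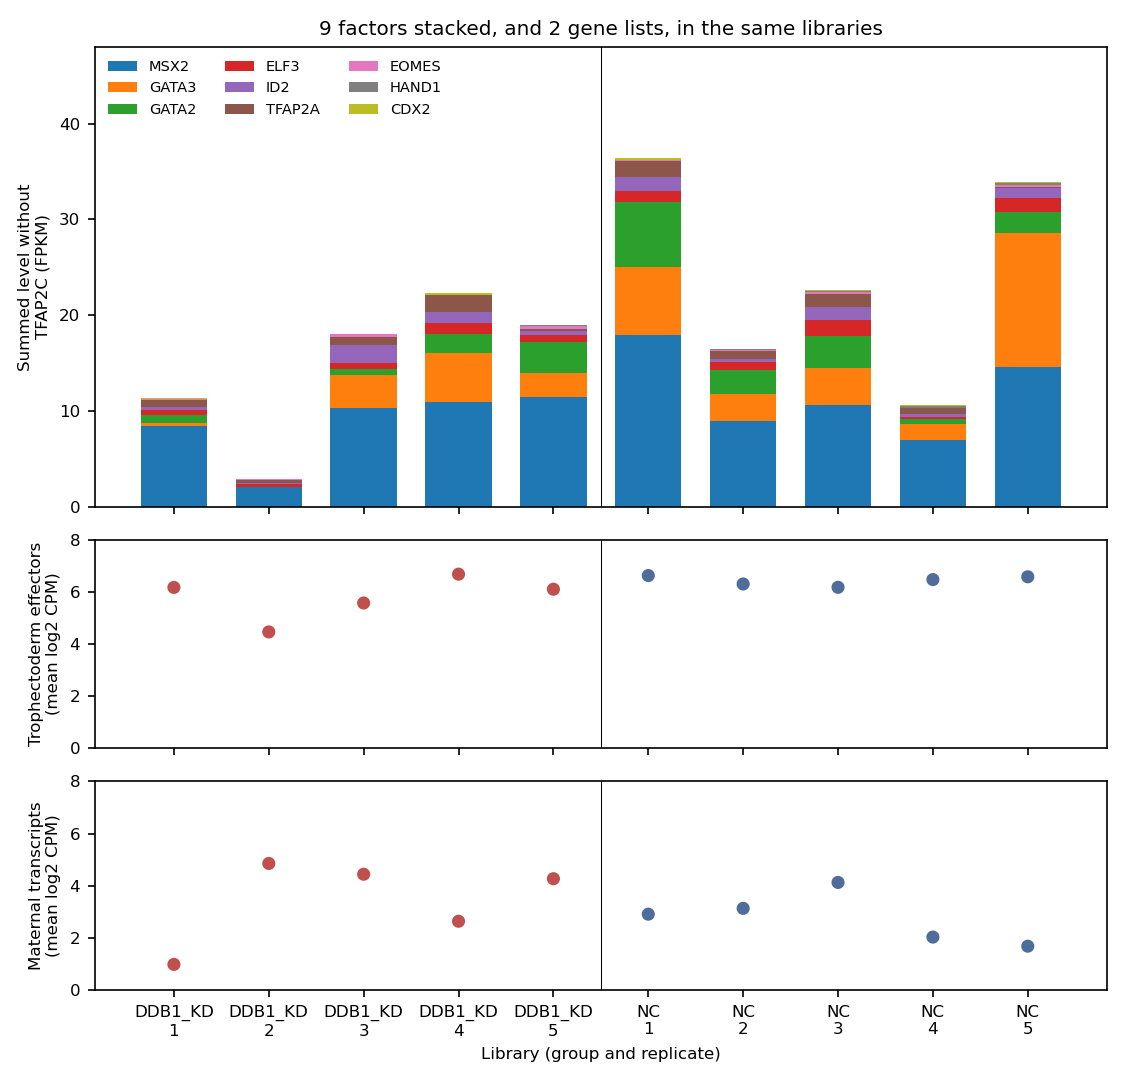
Top, stacked levels in FPKM of the 9 factors other than TFAP2C in each library, DDB1_KD left of the line and NC right of it; middle and bottom, mean log2 CPM of 20 trophectoderm effectors and of 17 maternal oocyte transcripts in the same libraries. The stack is lowest in DDB1_KD replicate 2 (2.85 FPKM), where the effectors are also lowest (4.46) and the maternal transcripts highest (4.86).

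The listed isoforms show where the counts of each factor came from. CDX2, TFAP2C, ELF3, EOMES, HAND1 and MSX2 have 1 isoform each. For GATA3, ENSSSCT00000038381 (chromosome 10, 63367663 to 63388876, minus strand, 6 exons) carried 98.7% of the counts in DDB1_KD and 99.4% in NC, and its log2 fold change was -1.35 (SE 1.26). For TFAP2A, ENSSSCT00000042342 (chromosome 7, 7223100 to 7240790, minus strand, 7 exons) carried 98.4% of the counts in DDB1_KD and 96.8% in NC. ENSSSCT00000051452, which reaches farthest upstream at 7244883, had a count of 0 in every library. In NC replicate 5, ENSSSCT00000042342 had 13 of the 21 TFAP2A counts (61.9%) and ENSSSCT00000001129 the other 8. Apart from that library, which has few counts, TFAP2A and GATA3 each came mostly from 1 transcript model where they had a count.

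GATA2 was split over 4 models, and the split changed from library to library. ENSSSCT00000012715 (chromosome 13, 71989423 to 71997617, plus strand, 6 exons) had 91, 0, 0, 306 and 143 counts in DDB1_KD replicates 1 to 5, and 1257, 26, 232, 189 and 404 counts in NC replicates 1 to 5. It was the GATA2 model that passed the filter, with a log2 fold change of -1.97 (SE 1.67, adjusted p = 0.9997 by edgeR over 11250 isoforms). With the counts of each group pooled, ENSSSCT00000012715 held 30.9% of GATA2 counts in DDB1_KD and 55.6% in NC. Single libraries departed from this in both groups, with 76.9% in DDB1_KD replicate 4 and 3.79% in NC replicate 2. ENSSSCT00000051629 (71990173 to 71999729, 4 exons) held 51.1% in DDB1_KD and 19.1% in NC. It had most of its counts in DDB1_KD replicate 5, with 800, and in NC replicate 2, with 660. The log2 fold change of ENSSSCT00000051629 was 0.17 (SE 2.37) by edgeR with no filter. The 5-exon model between the same ends, ENSSSCT00000053272, had 0 counts in all 5 DDB1_KD libraries, and 191, 0, 292, 0 and 153 counts in NC replicates 1 to 5. It is a presence in 3 NC libraries, since the other 2 were at 0 as well. ENSSSCT00000053272 was under the filter, and over all isoforms with a count its adjusted p was 0.502 by edgeR and 0.0769 by DESeq2. A count of 0 allows up to 3 counts in each library, and estimates of models that share most of their exons can pass counts among each other.

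**Figure D4:**
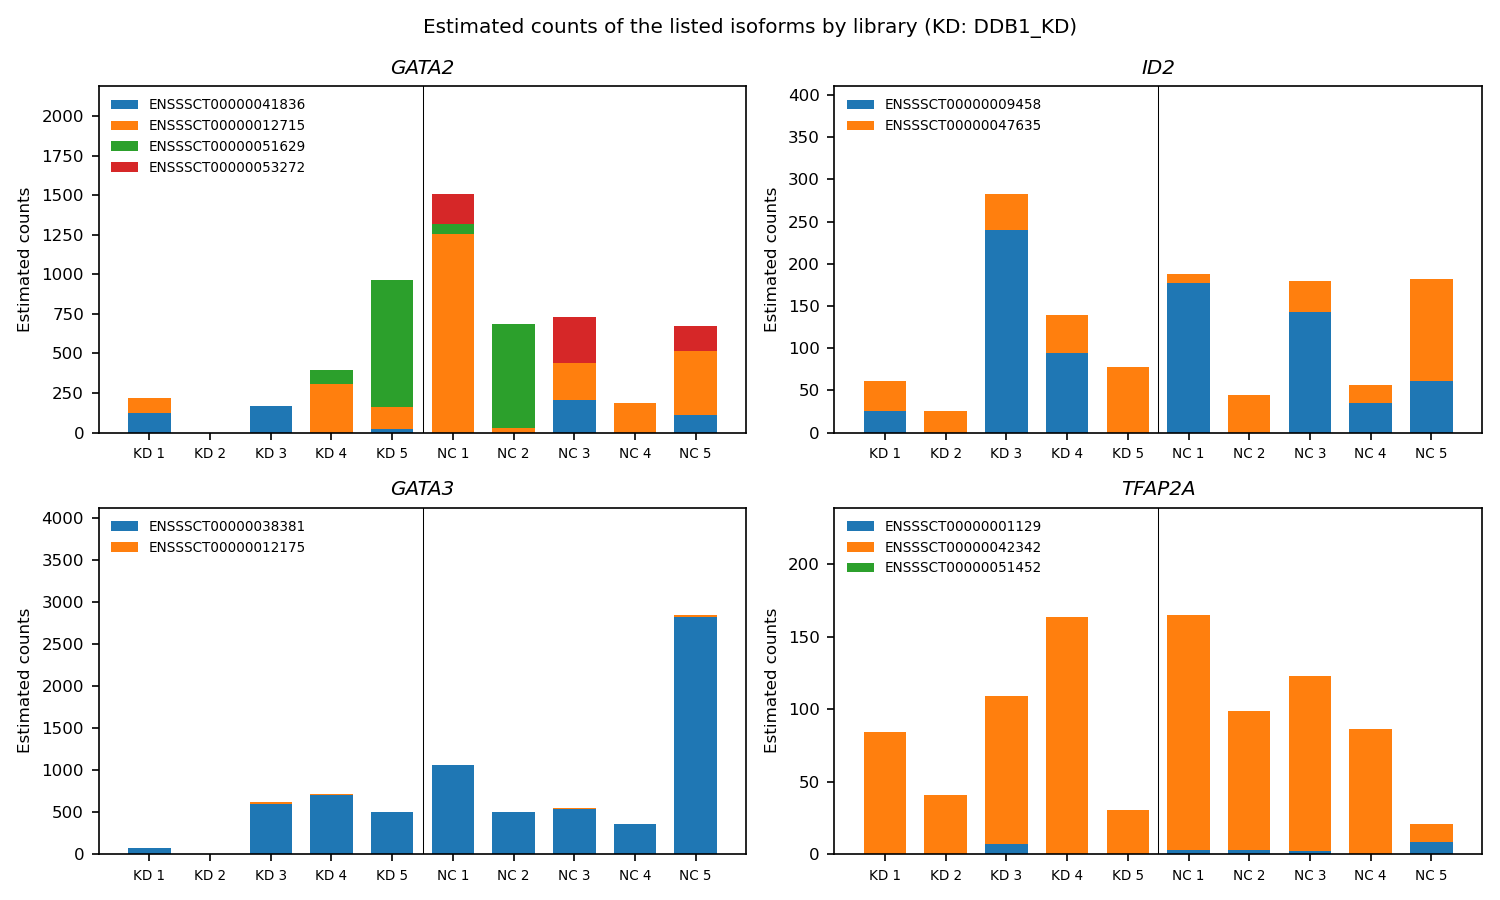
Estimated counts (vertical axis, linear from 0, scaled per panel) of the listed isoforms of GATA2, ID2, GATA3 and TFAP2A, stacked per library, DDB1_KD (KD) left of the line and NC right of it. GATA3 and TFAP2A come mostly from 1 isoform, least so for TFAP2A in NC replicate 5 (61.9%), whereas the isoforms of GATA2 and ID2 trade places between libraries of the same group.

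ID2 has 2 models between the same ends, ENSSSCT00000009458 with 3 exons and ENSSSCT00000047635 with 2. The 3-exon model held 61.3% of ID2 counts in DDB1_KD and 64.0% in NC, with 0 counts in DDB1_KD replicates 2 and 5 and in NC replicate 2. The 2-exon model had a count in all 10 libraries. Of 11250 isoforms tested, 1 passed edgeR (0.00889%) and 68 passed DESeq2 (0.604%). None of them was an isoform of a member. The isoforms of members that entered were those of TFAP2C and MSX2, the leading models of GATA3 and TFAP2A, and ENSSSCT00000012715 of GATA2.

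Overlapping annotation touches 2 members, and the sources used here do not state whether reads were counted by strand. The last 3800 bases of GATA2, from 71995930 to 71999729, also lie in EEFSEC, a selenocysteine elongation factor gene on the other strand. EEFSEC had 2.44 ± 1.07 FPKM in DDB1_KD libraries and 2.94 ± 0.778 FPKM in NC libraries (SD, n = 5 each), with 261 counts in DDB1_KD replicate 2, where GATA2 had 0. Reads in the shared stretch could be split either way. All 4 GATA2 models end in it, so their counts and that of the gene are uncertain. ID2 lies inside ENSSSCG00000035726 on the opposite strand, which had a count of 0 in every library.

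The genes most like each tested member in level across the 10 libraries were found by Pearson's r of log2 CPM. All genes were compared over the same 10 libraries and their groups, and DDB1_KD replicate 2 was low for several of them. The r values are therefore a description. GATA2 was most like DAB2, an endocytic adaptor of trophectoderm (r = 0.980), then PKP2, a desmosome protein (0.964), and VEGFA, a vascular growth factor (0.960). GATA3 was most like the receptor ERBB3 (0.952), the trophoblast factor ETS2 (0.952) and OSGIN1 (0.949). MSX2 was most like GATA2 itself (0.955), then FAM25A (0.944) and the membrane peptidase DPP4 (0.943). Without DDB1_KD replicate 2 these 9 values lay between 0.614 and 0.881, the last for GATA2 with DAB2. TFAP2C had other neighbours: ETAA1, a replication stress factor (0.941), TFAM, the mitochondrial transcription factor (0.910), and the proton pump subunit ATP6V0D2 (0.908). For TFAP2C the values without DDB1_KD replicate 2 were 0.913 to 0.955.

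DAB2 had 42.8, 0.409, 30.6, 62.8 and 70.9 FPKM in DDB1_KD replicates 1 to 5, and 191.9, 128.8, 115.1, 48.2 and 59.4 FPKM in NC replicates 1 to 5. Its lowest library was that of GATA2 and its highest, NC replicate 1, was too. DAB2 was chosen by its r with GATA2 in these same libraries, so this is no separate observation. The log2 fold change of DAB2 was -1.37 (SE 0.81, adjusted p = 0.977 by edgeR) and -1.05 without DDB1_KD replicate 2.

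The Hippo inputs that lead to these factors in the mouse were 18 listed genes, 17 found and 14 tested. None passed edgeR and 1 passed DESeq2, the coactivator YAP1. By fitted value 8 were higher and 6 lower in DDB1_KD, and the list's median was 0.043 on the log2 scale, against 0.00036 over all genes tested. YAP1 had 0.885, 0.699, 0.271, 0.947 and 0.555 FPKM in DDB1_KD replicates 1 to 5, and 5.18, 1.29, 2.04, 2.24 and 3.18 FPKM in NC replicates 1 to 5, without overlap. In DDB1_KD replicate 2, where the GATA factors were at 0, YAP1 was inside the range of its group. Among the other inputs, TEAD4 was at 7.13 ± 4.41 FPKM in DDB1_KD libraries and 6.71 ± 2.45 FPKM in NC libraries (SD, n = 5 each). WWTR1 was at 10.4 ± 4.95 FPKM in DDB1_KD libraries and 9.07 ± 2.58 FPKM in NC libraries (SD, n = 5 each). TEAD4 stood at 0.07 (SE 0.34) and WWTR1 at 0.18 (SE 0.39) on the log2 scale, and neither passed.

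Other transcription factors of trophoblast were 23 listed genes, of which 11 were tested and none passed edgeR or DESeq2. By fitted value 2 were higher and 9 lower in DDB1_KD, with a median on the log2 scale of -0.34, or -0.24 without DDB1_KD replicate 2. KLF5, a Krüppel-like factor of trophectoderm, had 30.8 ± 16.2 FPKM in DDB1_KD libraries and 38.6 ± 10.2 FPKM in NC libraries (SD, n = 5 each), with 4.68 FPKM in DDB1_KD replicate 2 and at least 28.5 FPKM in every other library. Its log2 fold change of -0.32 (SE 0.45) was -0.04 without that library. ETS2 stood at -0.80 (SE 0.71), the homeobox factor DLX5 at -1.02 (SE 0.69) and the T-box factor TBX3 at -0.43 (SE 0.31). Without DDB1_KD replicate 2 ETS2 was at -0.49 and TBX3 at -0.24, and without NC replicate 5, which had 10.8 FPKM of DLX5 against at most 3.28 FPKM in the other NC libraries, DLX5 was at -0.21.

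Among 19 paralogs of the members, 5 were tested and none passed. GATA6, a GATA factor of primitive endoderm, was far above GATA2 and GATA3, at 40.0 ± 18.5 FPKM in DDB1_KD libraries and 49.7 ± 7.77 FPKM in NC libraries (SD, n = 5 each), with a log2 fold change of -0.32 (SE 0.27, or -0.14 when DDB1_KD replicate 2 was left out). GATA6 did not drop to 0 in DDB1_KD replicate 2, but its 19.8 FPKM there was the lowest of the 10 libraries. Every NC library had at least 39.9 FPKM. ID3 was the leading ID gene, at 8.05 ± 5.28 FPKM in DDB1_KD libraries and 10.2 ± 5.31 FPKM in NC libraries (SD, n = 5 each), a log2 fold change of -0.32 (SE 0.64). The ETS relatives of ELF3, ELF1 and ELF2, had log2 fold changes of 0.14 (SE 0.22) and -0.13 (SE 0.23). CDX1, CDX4, GATA1, GATA5 and TFAP2D had a count of 0 in every library.

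Trophectoderm effectors, the keratins, junction proteins, pumps and channels on which outer cells and the blastocyst cavity depend, were 25 listed genes, 20 of them tested. None passed edgeR or DESeq2, with 5 higher and 15 lower by fitted value in DDB1_KD and a median log2 fold change of -0.37 (-0.27 without DDB1_KD replicate 2). The keratin KRT8 had 38.4, 0.0754, 4.44, 119.0 and 44.7 FPKM in DDB1_KD replicates 1 to 5, and 179.0, 40.8, 58.0, 42.2 and 33.9 FPKM in NC replicates 1 to 5. DDB1_KD replicates 2 and 3 were below every NC library, and the other 3 were inside the NC range. The tight junction gene CLDN4 had 154 ± 95.5 FPKM in DDB1_KD libraries and 244 ± 78.2 FPKM in NC libraries (SD, n = 5 each), a log2 fold change of -0.66 (SE 0.44). Without DDB1_KD replicate 2, where CLDN4 had 30.4 FPKM, it was -0.39. E-cadherin, CDH1, had 29.9 ± 5.92 FPKM in DDB1_KD libraries and 24.6 ± 7.61 FPKM in NC libraries (SD, n = 5 each), a log2 fold change of 0.28 (SE 0.23, or 0.15 when NC replicate 5 was left out), and was at its highest, 39.7 FPKM, in DDB1_KD replicate 2.

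The list mean of the effectors was 6.17, 4.46, 5.57, 6.67 and 6.10 log2 CPM in DDB1_KD replicates 1 to 5, and 6.62, 6.30, 6.17, 6.47 and 6.57 log2 CPM in NC replicates 1 to 5. DDB1_KD replicate 2 was again the lowest and DDB1_KD replicate 4 the highest of all 10 libraries.

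BMP pathway genes and ID partners, which act above and beside MSX2 and ID2, were 17 listed genes, 11 of them tested. None passed edgeR or DESeq2, and 6 were higher and 5 lower by fitted value in DDB1_KD, with a log2 median of 0.0095. The ligand BMP2 had 0.640 ± 0.222 FPKM in DDB1_KD libraries and 1.70 ± 1.44 FPKM in NC libraries (SD, n = 5 each), a log2 fold change of -1.33 (SE 0.70). BMP15, an oocyte growth factor that is also in the maternal list, was at 1.57 (SE 0.92), and the inhibitory SMAD7 at -0.45 (SE 0.28).

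Pluripotency factors, the opposing programme, were 14 listed genes, 11 of them tested. None passed edgeR or DESeq2, and 5 were higher and 6 lower by fitted value in DDB1_KD, with a log2 median of -0.0047. The core factor POU5F1 had 59.2 ± 36.9 FPKM in DDB1_KD libraries and 81.0 ± 29.3 FPKM in NC libraries (SD, n = 5 each), a log2 fold change of -0.47 (SE 0.36). NANOG, at 11.2 FPKM in DDB1_KD replicate 2 against a group mean of 3.91 FPKM, stood at 0.54 (SE 0.79) on the log2 scale, or at -0.28 without that library.

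**Figure D5:**
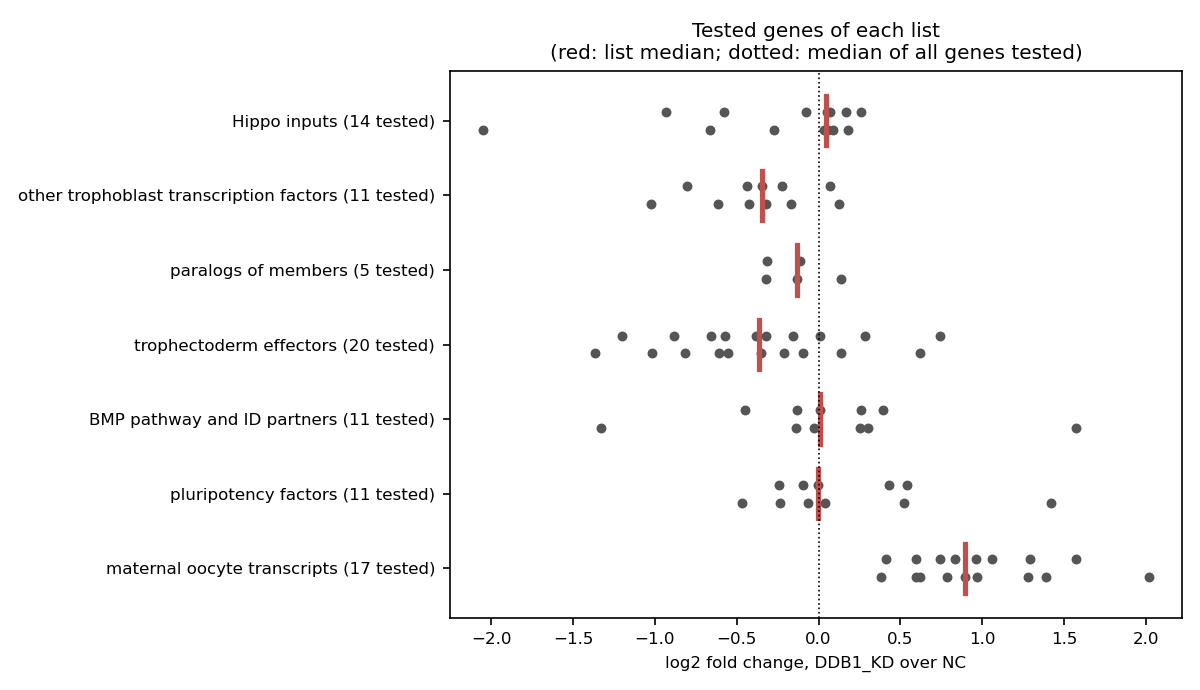
Log2 fold change, DDB1_KD over NC (horizontal axis), of each tested gene (grey dot) in 7 gene lists, with the list median in red and the median of all genes tested as a dotted line. The medians run from -0.37 for trophectoderm effectors to 0.90 for maternal oocyte transcripts, and no gene drawn passed edgeR.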

How the data were processed

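RNA of 10 pig morula libraries, 5 DDB1_KD and 5 NC by their titles, was analysed from 2 deposited tables. Per the file headers, the authors gave FPKM and estimated counts for each gene and isoform. The deposited estimated counts are whole numbers, isoform counts equal FPKM times length times a constant for 100% of values above 0, and gene counts are sums of isoform counts, so their sampling error may not be that of read counts. FPKM is listed at a small positive number where the count is 0 and was read as 0. The submitters' processing notes name fastp, HISAT2, HOMER, ChIPseeker, StringTie, edgeR and susScr11, with no role or version.

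The test covered genes and isoforms whose mean FPKM was 1 or more. It was run with edgeR 4.0.16 (glmQLFit, glmQLFTest, TMM, group alone, Benjamini-Hochberg at 0.05) in R 4.3.3. Members under that filter come from the same fit with no filter. Each SE beside an edgeR fold change was worked out from the test. It is the absolute coefficient fitted with no prior count, divided by the square root of the test's F. DESeq2 1.42.0, limma 3.58.1 on log2(FPKM + 1) and on log2(FPKM + 0.1), other scalings, the replicate number as a block and each library left out were alternatives. Levels are mean ± SD, and list means are TMM-scaled log2 CPM with a prior count of 2. The fit was tested on simulated data. Limits from a count of 0 use 3 counts and cover counting error only. Symbols missing from the table came from Ensembl names (951 genes) and NCBI RefSeq names (719), and 5237 genes have none. The members and gene lists were chosen with earlier results of these data known. Named are DDB1, the 10 members with their isoforms, for each tested member the 3 genes with the highest r, and genes of the lists where a value helps. Blood cell markers (2 tested, HBB and CD74) did not pass, nor did primitive endoderm markers (3 tested, 0 higher and 3 lower, median log2 fold change -0.12, against 1 lower and a median of 0.049 without DDB1_KD replicate 2).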

Additional observations from a re-analysis of the deposited data

Results flagged for a closer look

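HAND1 had 0.165 FPKM in DDB1_KD replicate 5, against 0 FPKM in the other 4 DDB1_KD libraries. The gap of this library to the nearest other, divided by the whole range of the group, was 1, above the critical value of 0.710 for 5 samples. With the other 4 libraries tied at 0, any value above 0 gives this ratio. It was the only such value among 28 groups of 5 libraries examined for the members and their sums, and at this level some flags are due to chance. The value rests on 32 estimated counts.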

How the results depend on the processing

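No member passed under any alternative run. Genes called numbered 0 with edgeR and 2 with DESeq2, where DDB1 passed at a log2 fold change of -1.36 (adjusted p = 0.0069). Isoforms called numbered 1, against 0 with no filter, 68 with DESeq2, 0 with the replicate block, and 0 to 2 when 1 library was left out. EOMES turned negative with limma (-0.00075 with a pseudocount of 1, -0.059 with 0.1) and with the replicate block (-0.14). When 1 library was left out, EOMES ranged from -0.27 to 0.33, TFAP2A from -0.69 to 0.073, TFAP2C from -0.23 to 0.0895 and ID2 from -0.78 to 0.12. The other 6 members kept a negative sign. The cause of these changes was not tested.

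The correlation of the deviations of same-numbered libraries ran from -0.14 to 0.35 and was above 0.1 in 2 of 5 pairs. It was highest for replicate 3, and 1 of 5 DDB1_KD libraries, that of replicate 3, matched its own number best. Whether same-numbered libraries shared a batch cannot be told from these 5 pairs. With the replicate block edgeR called 0 genes, and GATA2 was at -1.82, GATA3 at -2.27, MSX2 at -0.56, HAND1 at -4.95 and CDX2 at -1.99. The values of CDX2 and HAND1 rest on at most 16 and 53 counts in a library, so counting error is large beside them.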
